A study of Mus musculus with 12 samples.

Results

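Trichohyalin (Tchh), its relative Tchhl1, the peptidylarginine deiminases Padi1, Padi2, Padi3 and Padi4, the thyroid hormone-binding protein mu-crystallin (Crym) and the selenium-binding protein Selenbp1 were followed in mouse dorsal epidermis. These 8 genes were taken by name and matched to the Entrez numbers of the deposited tables, which hold values for 19392 genes at P36 and 17750 at 6 months. All 8 genes had values in both tables. Levels are in FPKM, a value scaled by gene length and library total, so that genes can be compared with each other.

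The series asks how loss of the nuclear receptor Vdr, which binds vitamin D, together with Med1, a Mediator subunit that works with it, affects the epidermal barrier. It has 4 groups of 3 libraries. All mice had a C57BL/6 strain background and floxed alleles of both genes (VDR fl/fl, Med1 fl/fl). The control groups were K14 Cre-/- and the double knockout (DKO) groups K14 Cre+/-. The recombinase Cre was thus driven by the keratin 14 gene's promoter, whose activity covers the basal layer and the outer root sheath of the follicle, so that matrix and inner root sheath are reached only through their ancestor cells. Epidermis was peeled from heated dorsal skin, ribosomal RNA was removed, and single-end reads of 50 bases were sequenced. Each genotype was sampled at postnatal day 36 (P36) and at 6 months. Whether replicate libraries of a group came from different mice is not stated, and the tests then cover only the spread among the libraries, which may be technical.

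Trichohyalin is the main structural protein of the inner root sheath and of the medulla of the hair. Peptidylarginine deiminases convert its arginines to citrulline, which lets the protein unfold, and transglutaminases then cross-link it to keratin filaments. In human patients, changes in PADI3, TGM3 and TCHH cause uncombable hair. The inner root sheath is built only while a follicle grows, in anagen.

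Library totals lay between 446617 and 554382 FPKM, and 12056 to 12760 genes reached 1 FPKM per library. The number of reads is unknown. Med1 stood at 13.9, 14.2 and 13.2 FPKM in control and at 10.4, 8.78 and 8.20 FPKM in the libraries labelled DKO at P36 (limma adjusted p = 0.0083). Med1 at 6 months stood at 16.7, 13.1 and 12.7 FPKM against 11.6, 11.4 and 11.9 FPKM (limma adjusted p = 0.13). Vdr stood at 65.8, 65.5 and 72.9 FPKM in control and 87.4, 86.7 and 76.5 FPKM in the libraries labelled DKO at P36, and at 53.5, 31.4 and 36.7 FPKM against 49.3, 42.1 and 52.9 FPKM at 6 months. Vdr was thus not lower under the DKO label. FPKM per gene does not show the floxed exons apart, so their loss cannot be read from these values. Every direction below rests on the DKO label. At 6 months DKO replicate 3 stood apart, with summed levels of 394 FPKM for macrophage genes and 177 FPKM for skeletal muscle genes. The other 5 libraries had 86 to 145 FPKM and 11.6 to 78.9 FPKM. Its dermal fibroblast genes summed to 982 FPKM. The other libraries labelled DKO had 311 and 393 FPKM of these, but control had 488 to 949 FPKM. At P36 skeletal muscle genes summed to 160 to 710 FPKM in the libraries labelled DKO, against 16.5 to 33.7 FPKM in control. The keratinocyte genes Krt5 and Krt14 exceeded 1000 FPKM in all 12 libraries. The list of 8 keratinocyte genes was not even between genotypes. At P36 its sum was 4822.5 to 6390 FPKM in control and 9834 to 12854 FPKM in DKO, with 3 genes called higher and 2 lower. At 6 months the sum was 12479 to 18975 FPKM and 8691 to 11340 FPKM, with 2 called higher and 4 lower.

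Stretches of 250 bases upstream of the annotated start are shown for 4 of the genes, since Tchh and Padi3 changed alike at P36 while Padi1 and Padi4 differed in direction between the ages. They come from the RefSeq promoter table of GRCm38.p6, on the strand of the gene; 7 of the 8 genes matched a window there. Tchh lies at chr3:93442080-93442329 (+), Padi3 at chr4:140810649-140810898 (-), Padi1 at chr4:140845779-140846028 (-) and Padi4 at chr4:140774204-140774453 (-). The deiminase genes form a cluster on chromosome 4, and Tchh and Tchhl1 lie on chromosome 3. Capitals mark matches, on either strand, to 7 motifs. The general promoter elements were CCAAT, then the Sp1 motif GGGCGG, and the element TATAAA bound by TBP. The motif TGACTCA is that of AP-1 factors. The motif CTTTGAT belongs to Lef1 and its relatives. The motif AGATAAG is that of Gata3 and its relatives. The motif AGGTCA is the half-site of nuclear receptors, of which the vitamin D receptor binds a pair.
Tchh: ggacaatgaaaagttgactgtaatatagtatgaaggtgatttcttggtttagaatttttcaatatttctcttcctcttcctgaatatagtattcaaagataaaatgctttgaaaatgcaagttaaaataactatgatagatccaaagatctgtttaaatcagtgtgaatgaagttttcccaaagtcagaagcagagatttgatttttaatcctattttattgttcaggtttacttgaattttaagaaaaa
Padi3: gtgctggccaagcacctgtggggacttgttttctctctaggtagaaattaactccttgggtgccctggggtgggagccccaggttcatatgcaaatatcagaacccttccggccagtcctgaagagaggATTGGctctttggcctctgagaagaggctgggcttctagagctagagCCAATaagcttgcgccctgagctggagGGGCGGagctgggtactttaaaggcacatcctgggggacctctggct
Padi1: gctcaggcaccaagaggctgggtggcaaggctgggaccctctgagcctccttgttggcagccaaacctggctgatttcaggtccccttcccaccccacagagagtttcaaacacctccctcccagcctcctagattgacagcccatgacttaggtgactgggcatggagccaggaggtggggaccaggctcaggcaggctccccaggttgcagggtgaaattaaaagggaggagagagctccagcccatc
Padi4: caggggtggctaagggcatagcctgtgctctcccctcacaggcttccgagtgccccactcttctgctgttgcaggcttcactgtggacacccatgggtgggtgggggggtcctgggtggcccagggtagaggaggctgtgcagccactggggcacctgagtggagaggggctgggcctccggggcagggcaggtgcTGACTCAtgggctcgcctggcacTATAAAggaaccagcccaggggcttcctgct

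The window of Padi3 held CCAAT matches beginning 121 and 74 bases before the start and a GGGCGG match at 47 bases. That of Padi4 held TGACTCA at 54 and TATAAA at 31 bases. The windows of Tchh and Padi1 held none of the 7 motifs. Among the 7 matched genes, CCAAT was found in 3 windows, against 33.8% of 32851 windows of the same length in the table, and TGACTCA in 1, against 4.46%. The half-site AGGTCA was found in the window of Tchhl1 alone, against 14.0% of all windows. CTTTGAT and AGATAAG were in none of the 7 windows, against 3.21% and 2.74% of all windows. These are descriptions of letters in 1 window per gene.

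At P36, 6 of the 8 genes fell in the libraries labelled DKO: Tchh, Tchhl1, Crym, Padi3, Padi1 and Padi4. None rose. Of all 12660 genes tested at this age, 5.32% were called lower and 18.0% higher (limma on log2(FPKM + 1), Benjamini-Hochberg adjusted p below 0.05). The median log2 fold change of the 8 genes was −1.54, against 0.09 over all genes tested. In each of the 6, every control library lay above every library labelled DKO, an arrangement found in 9.63% of all genes tested.

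Tchh stood at 3726, 5539 and 4430 FPKM in the control libraries and at 1350, 1189 and 1227 FPKM in those labelled DKO. It fell by 1.84 on the log2 scale (SE 0.18, limma adjusted p = 0.000609). In control it ranked between the third and sixth most abundant gene, with 0.698% to 1.08% of the library total. In the libraries labelled DKO it ranked between 51 and 77, with 0.218% to 0.257% of the total.

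Tchhl1 is a fused-type S100 protein like trichohyalin, encoded next to it. It had the largest fall of the 8, from 433, 447 and 280 FPKM to 107, 60.4 and 94.1 FPKM (log2 fold change −2.15, SE 0.25, limma adjusted p = 0.00111). As a share of Tchh it was 8.68% ± 2.70 (SD, n = 3) in control and 6.88% ± 1.57 in DKO, and these ranges overlapped.

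Padi3 is the deiminase of the inner root sheath and medulla. It went from 388, 465 and 426 FPKM to 167, 115 and 137 FPKM (log2 fold change −1.61, SE 0.15, limma adjusted p = 0.00051). Padi1, a deiminase of the upper epidermis and of the root sheath, went from 90.7, 106 and 89.4 FPKM to 35.2, 33.3 and 32.5 FPKM, with the smallest spread of the 6 (−1.47, SE 0.10, limma adjusted p = 0.000186). Padi4, best known from neutrophils, where it citrullinates histones, went from 70.8, 71.2 and 102 FPKM to 27.6, 31.4 and 33.6 FPKM (−1.35, SE 0.15, limma adjusted p = 0.00108). Relative to Tchh, Padi1 stood at 1.91% to 2.44% in control and 2.61% to 2.80% in DKO, without overlap. Padi3 (8.40% to 10.4% and 9.68% to 12.4%) and Padi4 (1.29% to 2.30% and 2.04% to 2.73%) overlapped. How many of all genes separate in this way relative to Tchh was not counted, so the separation is not read as particular to Padi1. In mean FPKM the falls of the 3 enzymes were between 2.63-fold and 3.05-fold, against 3.64-fold for Tchh.

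Crym, a binding protein for thyroid hormone and a reductase of cyclic ketimines, was the second most abundant of the 8 in control. Its values were 681, 571 and 718 FPKM in control and 224, 155 and 205 FPKM in DKO (log2 fold change −1.76, SE 0.16, limma adjusted p = 0.000502). Of the 6 tested genes that bind, transport or convert thyroid hormone at P36 (receptors, deiodinases and transporters), 0 rose and 0 fell. The smallest p among them was that of the transporter Slc16a10, from 5.52 ± 1.22 to 3.88 ± 0.403 FPKM (SD, n = 3, limma adjusted p = 0.11).

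Padi2 and Selenbp1 were not called at P36. Padi2, the deiminase of muscle, brain and macrophages, was near 1 FPKM in every library, at 1.05, 0.93 and 0.98 FPKM in control and 1.54, 1.18 and 1.49 FPKM in DKO. Its log2 fold change was 0.27 (SE 0.13, limma adjusted p = 0.173), although all libraries labelled DKO lay above all control libraries, as in 30.0% of genes tested. Markers of cell types that express Padi2 were higher in the same libraries. The summed FPKM of 13 skeletal muscle genes was 16.5 to 33.7 in control and 160 to 710 in DKO, and that of 8 macrophage genes was 57.6 to 78.3 and 284 to 439, with 12 of 12 tested muscle genes and 8 of 8 macrophage genes called higher. No marker of either list was at 0 in all libraries. Adipocyte and dermal fibroblast genes also rose, with 6 of 7 and 3 of 7 tested genes called higher. Among the libraries labelled DKO, the muscle and macrophage sums were lowest in replicate 3, where Padi2 was at 1.49 FPKM. Padi2 was lowest in replicate 2. The part of these cell types in the level of Padi2 was not tested.

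Selenbp1, a methanethiol oxidase, divided the control libraries. It stood at 136 and 126 FPKM in control replicates 1 and 2 but at 19.1 FPKM in replicate 3, and at 65.5, 24.9 and 34.0 FPKM in the libraries labelled DKO. The groups overlapped, and the log2 fold change of −0.85 had an SE of 0.71 (limma adjusted p = 0.453). Without control P36 replicate 3 it was −1.75 and passed the test (limma adjusted p = 0.0134). That library also had the lowest summed level of 7 dermal fibroblast genes in its group, 580 FPKM against 1058 and 1162. Among these genes Dpt went the other way, at 21.31 FPKM in control replicate 3 against 13.05 and 17.65 FPKM. The sum of 8 adipocyte genes in control replicate 3 was the highest, 1132 FPKM against 784 and 717, but Fabp4 alone held 1077, 740 and 700 FPKM of these. Adipoq, Plin1 and Plin4 were highest in control replicate 1, and Cfd, Cidec and Lep in replicate 3. The part of these cell types was not tested. Of the 50-base words of the Selenbp1 transcript, 52.3% also occur in its paralog Selenbp2, so reads could be divided between both. Selenbp2 itself was listed at no more than 0.57 FPKM in any library.

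**Figure D1:**
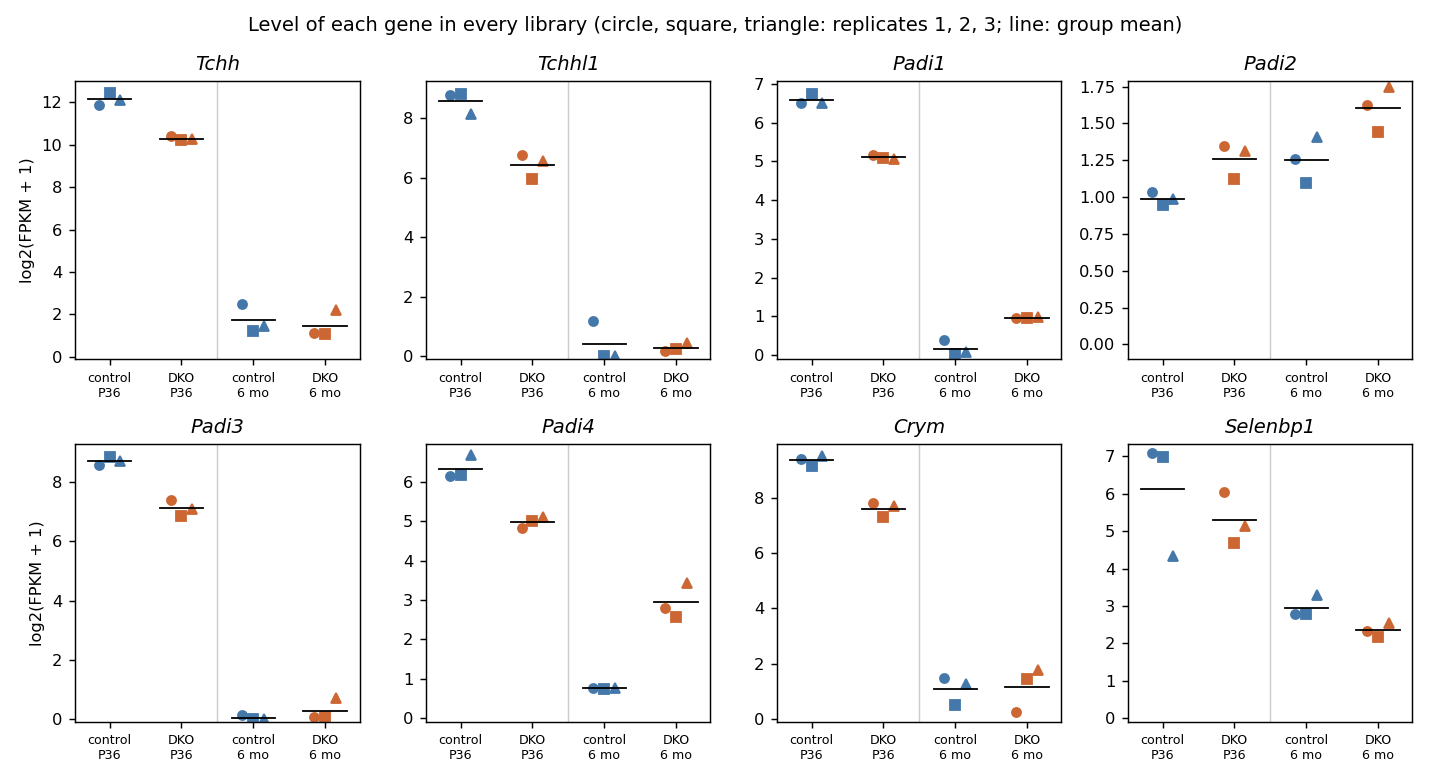
Level of each of the 8 genes in each library as log2(FPKM + 1), by group; circles, squares and triangles are replicates 1, 2 and 3, and lines are group means. At P36 the control libraries of Tchh, Tchhl1, Padi1, Padi3, Padi4 and Crym all lie above the DKO libraries, while control replicate 3 of Selenbp1 lies below all 3 DKO libraries; the y axes differ between genes.

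Genes of the same structures fell alongside at P36. Of 9 measured partners of trichohyalin (keratins of the inner root sheath and the transglutaminases Tgm1 and Tgm3), 8 fell and 0 rose, with a median of −1.26. Krt26 went from 403 ± 58.6 to 117 ± 22.3 FPKM and Krt28 from 953 ± 245 to 321 ± 28.3 FPKM (SD, n = 3; limma adjusted p = 0.000563 and 0.00137). Tgm3, which cross-links trichohyalin, went from 76.1 ± 7.96 to 33.6 ± 2.68 FPKM (limma adjusted p = 0.000571). All 9 measured transcription factors of the hair follicle also fell, among them Dlx3, Cux1 and Foxq1. Of 12 measured keratins of the hair shaft 11 fell, and their summed level was 3743 to 6411 FPKM in control and 1631 to 2778 FPKM in DKO. Genes of other tissues were higher in the same libraries labelled DKO. Of those tested, 12 of 12 skeletal muscle, 8 of 8 macrophage and 6 of 7 adipocyte genes were called higher. The sum of 8 keratinocyte genes was also higher, at 9834 to 12854 FPKM in DKO against 4822.5 to 6390 FPKM in control. The part of this difference in tissue makeup was not tested. In bulk tissue, fewer follicle cells and less RNA per cell cannot be told apart.

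The genes were also expressed relative to the summed FPKM of 7 inner root sheath keratins of the same library, a ratio that library scaling does not touch. Tchh made up 17.2% to 23.5% of this sum in control and 11.1% to 14.0% in DKO. Tchhl1 made up 1.45% to 2.01% and 0.668% to 1.07%. Crym stood at 2.42% to 3.71% and 1.72% to 2.34%, Padi3 at 1.79% to 2.20% and 1.27% to 1.56%, and Padi1 at 0.42% to 0.462% and 0.29% to 0.371%. In these 5 genes the groups did not overlap, so each stood lower in DKO relative to this sum, as did 0.498% of all genes tested. Without overlap, 93.5% stood higher, among them Padi2. The sum itself was 19344 to 23550 FPKM in control and 8775 to 12132 FPKM in DKO. Any gene that did not fall as far as the sum stands higher, so these shares largely follow from its fall. They do not show that the 5 genes are unusual. For these 5 genes the ratios of DKO over control, from geometric means, lay between 0.485 for Tchhl1 and 0.769 for Padi1. The sum was carried by Krt71, Krt25 and Krt27, with 38.7%, 26.7% and 18.9% of it in control, which were 2.07-fold, 1.84-fold and 2.42-fold lower in DKO by mean FPKM. Krt28, Krt26 and Krt72 were 2.97-fold, 3.46-fold and 3.56-fold lower, so that Padi1 (2.83-fold) was no lower than any of these 3, Padi3 (3.05-fold) and Crym (3.37-fold) were lower than Krt28 only, and Tchh (3.64-fold) and Tchhl1 (4.45-fold) were lower than all 3. Padi4 overlapped relative to the sum, at 0.302% to 0.526% and 0.227% to 0.382%. Relative to 12 hair shaft keratins, Tchhl1 and Crym were lower without overlap, as were 0.3% of all genes tested. Padi2 was higher without overlap, as were 89.3%. The summed hair shaft keratins also fell, so the same limit holds for these shares. Tchh overlapped, at 58.1% to 148% in control and 48.6% to 72.9% in DKO. With 3 against 3, the exact permutation test (two-sided) cannot go below p = 0.1, and over the 16 comparisons the smallest Benjamini-Hochberg adjusted p was 0.178.

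**Figure D2:**
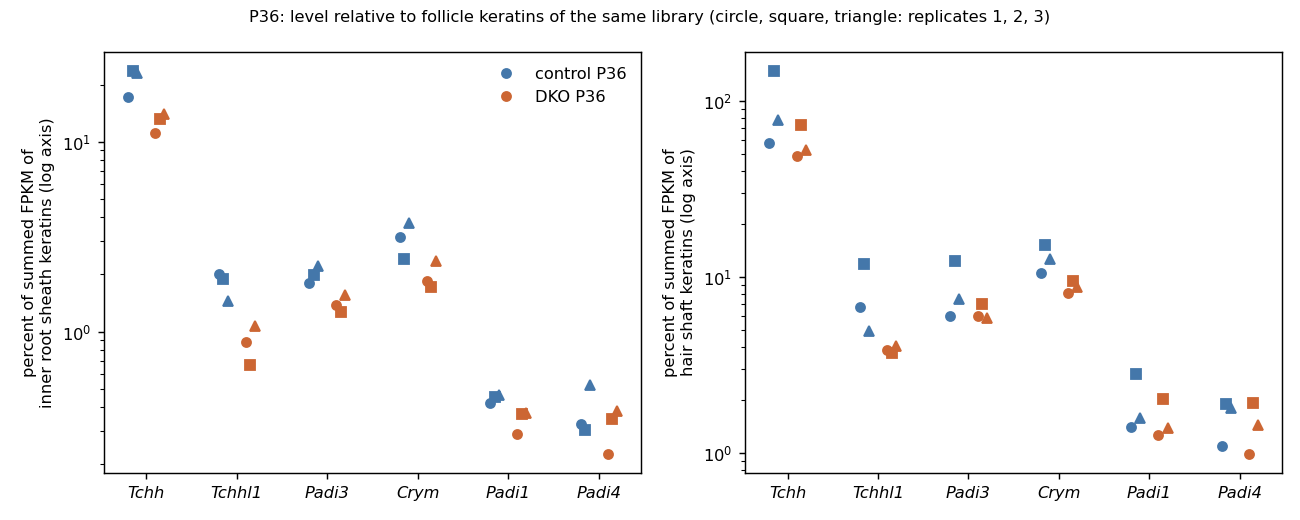
FPKM of 6 genes as a percent of the summed FPKM of inner root sheath keratins (left) and hair shaft keratins (right) of the same P36 library, on log axes; blue is control, orange is DKO, and symbols are replicates. On the left the DKO points of Tchh, Tchhl1, Padi3, Crym and Padi1 lie below the control points; on the right the groups separate for Tchhl1 and Crym.

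Substrates of the deiminases outside the root sheath did not share one direction at P36. S100a3, a protein of the hair cuticle that is citrullinated there, stood at 3054, 2623 and 2497 FPKM in control and 1407, 864 and 1124 FPKM in DKO. Krt1 and Krt10, keratins of the suprabasal epidermis, rose from 184 ± 42.5 to 2001 ± 211 FPKM and from 767 ± 166 to 2326 ± 488 FPKM (SD, n = 3; limma adjusted p = 0.000131 and 0.00176). In all, 4 of 6 measured substrates rose and 1 fell. Among the other fused-type S100 proteins, cornulin (Crnn) fell from 397 ± 55.0 to 116 ± 40.9 FPKM and hornerin (Hrnr) rose from 15.4 ± 9.21 to 35.4 ± 10.6 FPKM (limma adjusted p = 0.00148 and 0.0423).

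At 6 months the hair genes of the group were close to 0 in both genotypes. The deiminases Padi4 and Padi1 stood higher in the libraries labelled DKO, opposite to P36, but Padi1 was below 1 FPKM in every library. Of the 8 genes, 5 reached 1 FPKM in at least 3 libraries and were tested; Padi4 was called higher, Selenbp1 lower, and Tchh, Crym and Padi2 were not called. Padi4 reached that level only in the libraries labelled DKO, so its passing the filter is no separate evidence. Of 12594 genes tested, 23.2% were called higher and 18.2% lower. The median log2 fold change of the 5 genes was 0.07, against 0.04 over all genes tested. Levels at both ages are set side by side without a test, since the sources used here do not say whether the tables were normalized together. Only the genotype effects, from which a shift common to 1 table cancels, were tested between ages.

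Tchh stood at 4.70, 1.35 and 1.77 FPKM in control and 1.2, 1.10 and 3.61 FPKM in DKO at 6 months, with overlapping groups (log2 fold change −0.27, SE 0.42, limma adjusted p = 0.634). Its control mean of 2.61 FPKM compares with 4565 FPKM at P36. The highest values were in control replicate 1 and DKO replicate 3. These were also the libraries with the highest levels of the inner root sheath keratin Krt71, 4.10 and 6.15 FPKM, against at most 0.42 FPKM in the other 4. Tchhl1 stood at 1.28, 0 and 0 FPKM in control, again highest in replicate 1, and at 0.12, 0.19 and 0.34 FPKM in DKO. Padi3 stood at 0.08, 0 and 0 FPKM in control and 0.04, 0.04 and 0.61 FPKM in DKO, highest in DKO replicate 3. Crym stood at 1.82, 0.43 and 1.39 FPKM and 0.20, 1.75 and 2.40 FPKM (limma adjusted p = 0.903).

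Padi4 stood at 0.70, 0.66 and 0.70 FPKM in control and 5.98, 4.98 and 9.90 FPKM in DKO, with every library labelled DKO above every control library, as in 31.8% of genes tested. Its log2 fold change was 2.19 (SE 0.22, limma adjusted p = 0.000685), and it was also called with no filter on low values (adjusted p = 0.00193) and there without any 1 of the libraries labelled DKO (adjusted p at most 0.0103). In mean FPKM it was 10.1-fold higher, whereas at P36 it was 2.63-fold lower. Of 9 neutrophil genes only Cxcr2 reached the level for testing at 6 months, and it was called higher, at 4.75, 5.10 and 5.21 FPKM in control and 15.5, 16.5 and 11.1 FPKM in DKO. The summed level of the 9 genes was 5.96 to 6.13 FPKM in control and 15.8 to 18.3 FPKM in DKO. Of the other 8, Mpo stood at 0.74, 0.60 and 0.18 FPKM in DKO against at most 0.07 FPKM in control, Csf3r at 0.60, 0.80 and 2.62 FPKM against 0.61 to 0.74 FPKM, and Retnlg at 0.33, 0.22 and 1.66 FPKM against at most 0.31 FPKM. Ly6g, Elane, Ngp, Camp and Ltf were at most 0.22 FPKM in any 6-month library, with Elane and Camp at 0 in all 3 libraries labelled DKO. At P36 the summed level was 4.18 to 5.55 FPKM in control and 10.8 to 20.1 FPKM in DKO. The part of neutrophils in the level of Padi4 was not tested. Without DKO 6mo replicate 3, the library with the highest Padi4, the log2 fold change with no filter was 1.94 (limma adjusted p = 0.00184).

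Padi1 stood at 0.32, 0.03 and 0.05 FPKM in control and at 0.94, 0.93 and 0.97 FPKM in DKO at 6 months, without overlap. It was below the filter in every library. With no filter it was called higher (log2 fold change 0.79, limma adjusted p = 0.0033), where 16.4% of 17750 genes were called higher. Of its 50-base words, 30.3% occur in transcripts of other genes, nearly all in the RNA Gm13032 on the opposite strand; the sources used here do not say whether strand was used in counting, so reads of both cannot be told apart. Padi2 stood at 1.39, 1.14 and 1.66 FPKM and 2.08, 1.72 and 2.36 FPKM (log2 fold change 0.35, SE 0.15, limma adjusted p = 0.104), and it was called higher only in the joint fit of all libraries (adjusted p = 0.0404). Its highest value was in DKO replicate 3, without which the log2 fold change was 0.28 (limma adjusted p = 0.212).

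Selenbp1 stood at 5.84, 5.83 and 8.80 FPKM in control and 3.99, 3.52 and 4.87 FPKM in DKO at 6 months, without overlap; 24.0% of genes tested were arranged in this way. It fell by 0.60 on the log2 scale (SE 0.18, limma adjusted p = 0.0351). The call was lost without control 6mo replicate 3 (adjusted p = 0.0923), without DKO 6mo replicate 1 (0.0927) or replicate 2 (0.113), with no filter (0.0627) and in the joint fit (0.441).

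**Figure D3:**
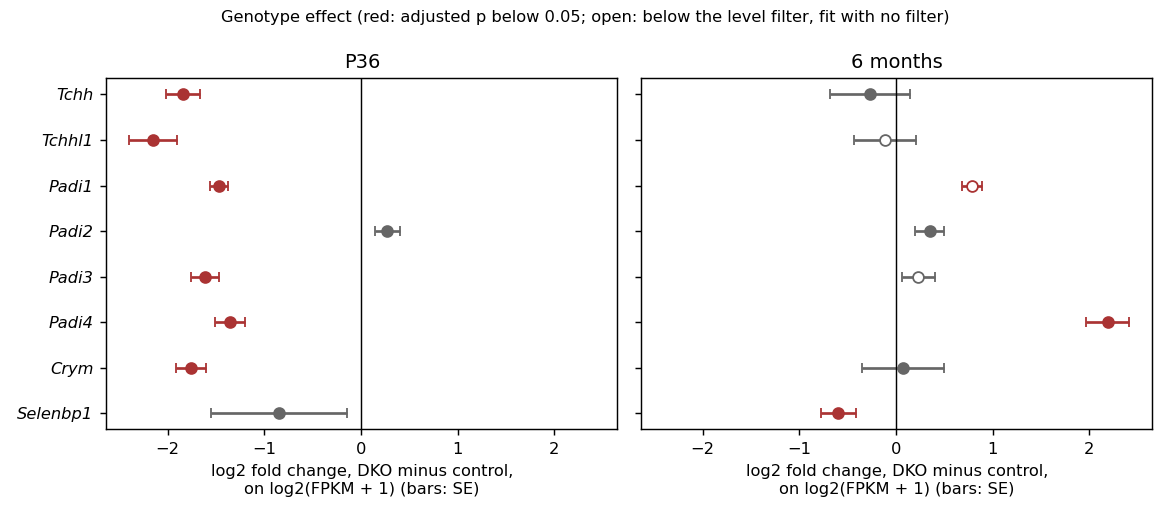
Log2 fold change of each gene (DKO minus control, on log2(FPKM + 1)) at P36 and 6 months; bars are SE, red marks an adjusted p below 0.05, and open symbols are genes below the level filter, taken from the fit with no filter. The 6 called genes at P36 lie between −2.15 and −1.35, while at 6 months Padi4 lies at 2.19.

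The most abundant deiminase was Padi3 in all P36 libraries and another enzyme in all 6-month libraries. At P36 the 4 enzymes summed to 604 ± 48.0 FPKM in control and 206 ± 25.3 FPKM in DKO (SD, n = 3). Padi3 held 70.6% ± 1.71 of the sum in control and 67.6% ± 4.36 in DKO, with overlapping ranges. Padi1 held 15.8% and 16.5% and Padi4 13.5% and 15.2%, also overlapping. Padi2 held 0.145% to 0.191% in control and 0.652% to 0.729% in DKO, without overlap. Padi2 itself was not called at P36, so its larger share largely restates the fall of the sum. How many of all genes separate in this way relative to the sum was not counted. At 6 months the sum was 2.24 ± 0.360 FPKM in control, of which Padi2 held 55.8% to 68.9% and Padi4 28.1% to 36.1%. In DKO the sum was 10.2 ± 3.24 FPKM, and Padi4 held 64.9% to 71.5% and Padi2 17.1% to 23.0%. At 6 months the enzyme with the largest share was thus Padi2 in all 3 control libraries and Padi4 in all 3 libraries labelled DKO.

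**Figure D4:**
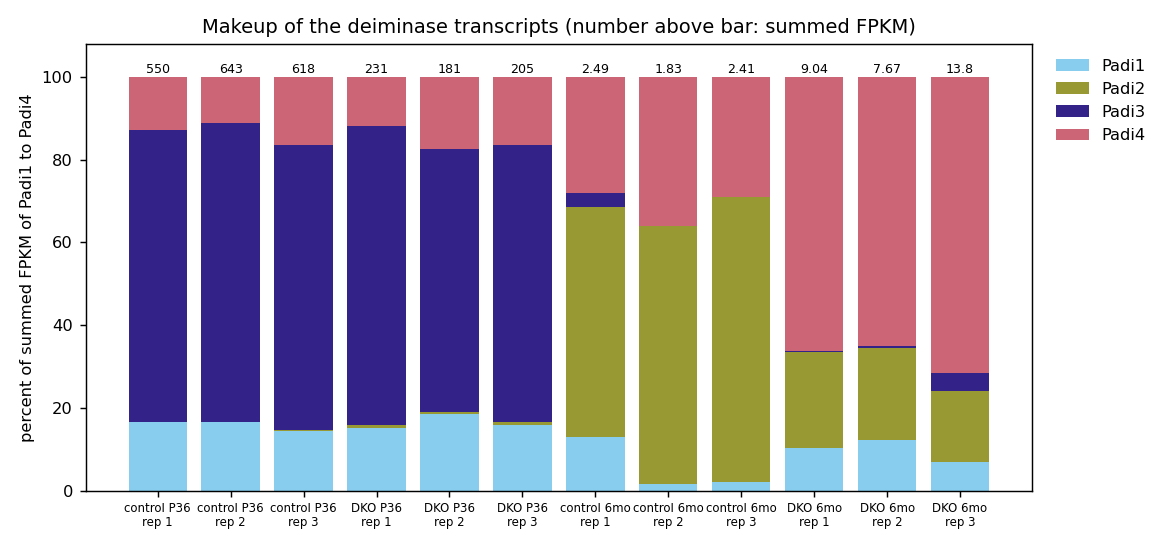
Percent of the summed FPKM of Padi1 to Padi4 held by each enzyme in each library, with the summed FPKM above each bar. Padi3 holds the largest part in all P36 libraries, Padi2 in the control libraries at 6 months and Padi4 in the DKO libraries at 6 months.

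Of the partners of trichohyalin, 3 of 9 were tested at 6 months. Tgm3 rose from 2.67 ± 1.22 to 10.9 ± 3.71 FPKM (SD, n = 3, limma adjusted p = 0.00655) after a fall at P36, as did Padi4, and Tgm1 stood at 70.5 ± 9.65 and 59.0 ± 10.5 FPKM (adjusted p = 0.22). Krt10, a deiminase substrate, fell from 5733 ± 1249 to 2643 ± 524 FPKM (limma adjusted p = 0.00617). Krt1 went the other way, with 1055 ± 383 FPKM in control and 2016 ± 477 FPKM in DKO. Filaggrin 2 (Flg2) fell from 574 ± 79.4 to 138 ± 15.7 FPKM (limma adjusted p = 0.000194). Repetin (Rptn), another fused-type S100 protein, rose from 3.79 ± 1.22 to 21.2 ± 8.10 FPKM (adjusted p = 0.00142). Of 6 measured substrates, 2 rose and 3 fell. Of 9 follicle transcription factors 4 fell and 0 rose, with Cux1 going from 30.0 ± 0.645 to 14.3 ± 1.06 FPKM (adjusted p = 0.000474). Among thyroid hormone genes, the receptor Thra fell from 46.9 ± 2.98 to 17.7 ± 2.48 FPKM and the transporter Slc16a10 from 6.24 ± 1.26 to 2.58 ± 0.274 FPKM (adjusted p = 0.0004 and 0.00283).

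When the change of genotype effect from P36 to 6 months was itself tested on all 12 libraries, 6 of the 8 genes passed, and 3 with a pseudocount of 0.1; of 13280 genes, 13.8% were called in the same direction. Padi1, Padi3 and Tchhl1 met the level filter only through their P36 libraries, so the count of 6 is no support beyond the fall at P36. For Padi4 the difference (6 months minus P36) was 3.54 (SE 0.29, limma adjusted p = 3e-05) and for Padi1 2.26 (SE 0.16, adjusted p = 1.3e-05). Both genes were lower in DKO than in control at P36 and higher at 6 months, where Padi1 was below 1 FPKM in every library. The fall of Padi1 at P36, −1.47, made up the larger part of its difference. For Padi3, Tchhl1, Crym and Tchh the difference was 1.84, 2.03, 1.83 and 1.58 (limma adjusted p = 0.00037, 0.00516, 0.014 and 0.0248), from a fall at P36 to levels near 0 in both genotypes at 6 months, where a fall could hardly be measured, so that these differences largely restate the P36 values. With a pseudocount of 0.1 the difference did not pass for Tchh, Tchhl1 and Crym (adjusted p = 0.101, 0.106 and 0.181). For Tchh it was also lost without control P36 replicate 2, DKO P36 replicate 2 or 3, or control 6mo replicate 2 or 3 (adjusted p = 0.0503 to 0.0569). Padi2 and Selenbp1 were not called (limma adjusted p = 0.764 and 0.841).

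Across the 12 libraries, likeness was measured as the mean absolute difference of log2(FPKM + 1) after centring each gene on its own mean, over 12764 genes. This measure takes in the level difference between the ages, which for Tchh was 4565 against 2.61 FPKM in control. Nearness is thus not a likeness of genotype effects alone, and it is given without a test. The nearest to Tchh were Prr9, a proline-rich protein of the epidermal differentiation complex, in which Tchh also lies, at 0.38, an identifier without a matched symbol at 0.47 and the keratin-associated gene Krtap11-1 at 0.47. Prr9 averaged 3040 FPKM in control and 1082 FPKM in DKO at P36. The nearest to Tchhl1 were Crnn at 0.23, Vsig8 at 0.28 and Krtap17-1 at 0.33. The nearest to Padi3 were 3 keratins, Krt26 at 0.22, Krt33b at 0.23 and Krt87 at 0.24. Padi4 had other neighbours: the gap junction genes Gjb2 at 0.34 and Gjb6 at 0.44 and the calpain Capn12 at 0.37, each lower in DKO at P36 and higher at 6 months in mean FPKM. Gjb2 averaged 576 and 262 FPKM at P36 and 5.83 and 46.6 FPKM at 6 months in control and DKO. With a pseudocount of 0.1 all 3 neighbours of Padi4 were again the nearest, but only 1 of 3 for each of Tchh, Tchhl1 and Padi3.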

How the data were processed

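The authors deposited 1 table per age with FPKM values per gene and library, and their own log2 ratio of DKO over control with a p-value and q-value, per the file headers. HISAT2 2.1.0 and RSEM 1.2.8 were used per the submitters' processing notes, which name human builds for these mouse samples, so no coordinates were taken from the tables. The age of a table comes from its name. Of the identifiers with values, 19343 at P36 and 17712 at 6 months matched a RefSeq symbol (GRCm38.p6).

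In R 4.3.3, limma 3.58.1 with a mean-dependent variance prior was fitted to log2(FPKM + 1), a scale that understates changes of low genes, for genes with at least 1 FPKM in 3 libraries. Separate fits were made for P36 and 6 months (6 libraries each), and the difference between ages was fitted on all 12. P-values were Benjamini-Hochberg adjusted over all genes fitted and called below 0.05. The fit was tested on simulated data. Alternatives were a pseudocount of 0.1, no filter, a filter at 5 FPKM, totals without keratin, trichohyalin and cornified envelope genes, median-ratio scaling, a replicate block, a joint fit and each library left out. Shared 50-base words were counted in GENCODE M21 transcripts. The genes, lists and tests were chosen with earlier results of these data known. Named partners are the 3 genes per list and age with the smallest adjusted p, and Krt5, Krt14, S100a3, Krt25, Krt27, Krt71, Krt72, Cxcr2, Elane, Ly6g and Mpo, and in the neutrophil list Csf3r, Retnlg, Ngp, Camp and Ltf, were named after their values were seen. The same holds for Dpt and for Krt1 at 6 months.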

Additional observations from a re-analysis of the deposited data

Results flagged for a closer look

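In 6 genes the difference of the genotype effect between the ages passed its test (6 months minus P36, log2 scale, limma on 12 libraries). Of all 13280 genes, 13.8% were called in the same direction. Padi1, Padi3 and Tchhl1 met the level filter only through their P36 libraries, and Tchh, Tchhl1 and Crym did not pass with a pseudocount of 0.1. The values were 3.54 for Padi4, 2.26 for Padi1, 2.03 for Tchhl1, 1.84 for Padi3, 1.83 for Crym and 1.58 for Tchh. Padi4 and Padi1 were lower in all 3 libraries labelled DKO at P36 and higher in all 3 at 6 months, with Padi1 below 1 FPKM in every 6-month library. For the other 4, the 6-month levels were near 0 and overlapped between genotypes, so their differences largely restate the fall at P36.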

How the results depend on the processing

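At P36 the count of the 8 genes called lower was 6 in all 7 alternatives and 6 to 7 with each library left out, and 0 were called higher in any; over all genes, 1662 to 2660 were called with a library left out, against 2949, with the lowest counts without DKO P36 replicate 2 (1662) or replicate 3 (1697). At P36, 1597 genes were higher and 1113 lower under median-ratio scaling, compared with 2275 and 674, and the median log2 fold change went from 0.09 to −0.03. At 6 months, with totals taken without keratin, trichohyalin and cornified envelope genes, 1857 were higher and 3410 lower, compared with 2918 and 2289, and that median went from 0.04 to −0.13. For the difference between ages, 2661 were higher and 2208 lower under median-ratio scaling and 1300 and 3357 under those totals, compared with 1827 and 2804. At 6 months the count called lower, 1 in the report, was 0 with no filter and in the joint fit and 0 to 1 with a library left out. The count called higher, also 1, was 2 with no filter, 0 with the filter at 5 FPKM, 3 in the joint fit and 0 to 2 with a library left out; without a library labelled DKO, Padi4 no longer met the filter, and with no filter as well, an alternative chosen after seeing the data, the count was 2. For the difference between ages, the count called higher, 6, was 3 with a pseudocount of 0.1 and 5 to 6 with a library left out. Uncalled values that changed sign were those of Crym at 6 months (0.07 in the report, −0.043 with a pseudocount of 0.1, −0.031 with those totals, −0.23 to 0.52 with a library left out, −0.075 without DKO 6mo replicate 2), of Tchh at 6 months (−0.63 to 0.12 with a library left out), of Tchhl1 at 6 months, a difference with no test (−0.12 in the report's setting, 0.34 with a pseudocount of 0.1, −0.32 to 0.28 with a library left out), and, for the difference between ages, of Padi2 (0.08 in the report, −0.0049 with those totals, −0.0011 to 0.16 with a library left out) and Selenbp1 (−0.23 to 1.15 with a library left out). The cause of these changes was not tested. Deviations of equal replicate numbers correlated between −0.12 and 0.18 over both ages, and those of unequal numbers between −0.21 and 0.23. With 3 libraries per group this cannot decide whether equal numbers were paired. With the replicate block the counts of the 8 genes called lower at P36 (6), called higher and lower at 6 months (1 and 1) and called in the difference between ages (6) were the same. The number of reads is unknown, so the counting error of values near 0 at 6 months could not be estimated.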

Other observations

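The authors' deposited table gives much smaller q-values than the spread between libraries gives here. For Tchh at 6 months, where the groups overlapped, the authors' deposited table lists a log2 ratio of −0.39 with a q-value of 8.5e-07 and a p-value of 1.85e-06, so that q is below p there. For Padi3 at 6 months, where only DKO replicate 3 exceeded 0.1 FPKM, the authors' deposited table lists a log2 ratio of 3.13 with a q-value of 9.84e-08. For Selenbp1 at P36, where control replicate 3 was the lowest of the 6 libraries, the authors' deposited table lists −1.18 with a q-value of 0. The authors' deposited table lists ratios of −1.40 at P36 and 3.34 at 6 months for Padi4, and −1.50 and 2.89 for Padi1, with the same signs as the fits here.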
